A study of Mus musculus with 9 samples.

Results

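The genes described here encode the neurofilament subunits and other proteins of the neuronal cytoskeleton. They are Nefl, Nefm, Nefh, Ina, Mapt, Map2, Map1b, Tubb3, Stmn2 and Stmn3, a list of 10 genes chosen by name from a table of 52550 genes. All 10 had a row in the table and all 10 passed the filter on low counts, which left 18699 genes for testing. The spinal cord of 9 adult female C57BL/6N mice was sequenced on day 7 after surgery, with 3 mice in each group. Sham mice had a laminectomy and no contusion, and the study describes no injection for them. SCI mice had a contusion of the thoracic cord from an Infinite Horizons impactor and intraperitoneal DMSO, the vehicle. SCI+FIPI mice had the same contusion and intraperitoneal FIPI, an inhibitor of phospholipase D, given straight after injury and then daily. The RNA came from a segment of cord around the epicenter and was enriched for polyadenylated molecules. Such a segment mixes neurons, glia and, after injury, cells from the blood, so that fewer cells of a type and less RNA per cell cannot be told apart in these values. The cell bodies of many fibers that cross the segment lie outside it.

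Neurofilaments are the intermediate filaments of neurons. They fill large axons, set axon diameter and so bear on the speed of conduction. The light, medium and heavy subunits and internexin alpha assemble side by side, while microtubules built from tubulin form the tracks for axonal transport and are bundled or stabilized by microtubule-associated proteins. Stathmins bind tubulin dimers and favour microtubule disassembly. In the clinic, neurofilament proteins released into blood and cerebrospinal fluid serve as markers of axonal damage, including that of the injured spinal cord.

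The subunits differ most in the tail that projects from the filament. The tail of the heavy subunit carries a long row of Lys-Ser-Pro repeats, whose serines are phosphorylated in axons. In the reference coding sequence of GRCm38, read in frame from the GENCODE annotation, Nefh holds 51 Lys-Ser-Pro triplets in 1090 codons (14.0% of its codons), Nefm holds 4 in 848 (1.42%), Nefl holds 0 in 543 and Ina holds 0 in 501. The stretch below, from the last exon of Nefh on the minus strand at chr11:4940884-4941063, is shown because it is the feature that sets this subunit apart. Capitals mark the codons of 10 Lys-Ser-Pro triplets.
Nefh coding stretch: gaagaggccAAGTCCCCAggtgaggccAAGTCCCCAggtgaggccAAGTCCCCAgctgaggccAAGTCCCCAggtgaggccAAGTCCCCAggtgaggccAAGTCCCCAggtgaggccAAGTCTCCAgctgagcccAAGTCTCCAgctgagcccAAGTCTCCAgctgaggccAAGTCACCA

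On GRCm38, Nefl (ENSMUSG00000022055) lies on the plus strand of chr14:68083863-68089095, and Nefm (ENSMUSG00000022054) on the minus strand of chr14:68082590-68124846. The span of Nefm includes that of Nefl because 1 of its 2 annotated transcripts runs past it. That transcript shares 1108 exonic bases with Nefl, 32.8% of the exonic length of Nefl, of which 1008 are coding in Nefl, and the other Nefm transcript shares 0. Whether the counting used strand is not given in the sources used here, so reads in that overlap are of uncertain origin. Nefh (ENSMUSG00000020396) lies on the minus strand of chr11:4938754-4948064 and Ina (ENSMUSG00000034336) on the plus strand of chr19:47014698-47025327, where Nt5c2 covers 456 of its exonic bases from the opposite strand. Mapt (ENSMUSG00000018411) lies at chr11:104231390-104332090, Map2 (ENSMUSG00000015222) at chr1:66175273-66442583 and Map1b (ENSMUSG00000052727) at chr13:99421446-99516540. Gm10558 covers 124 exonic bases of Map2 from the opposite strand. Tubb3 (ENSMUSG00000062380) lies at chr8:123411424-123422015, Stmn2 (ENSMUSG00000027500) at chr3:8509360-8561606 and Stmn3 (ENSMUSG00000027581) at chr2:181306459-181314500. At most 1.46% of the 50-base stretches in the longest transcript of a member (Stmn2) occur unchanged in an annotated transcript of another gene. Copies that differ by a base or more were not searched for.

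Libraries held 20806000 to 24582377 counts and a member had 1828 to 53324 counts in a mouse, so that spread between mice and not counting error limited the precision. CPM below is the count scaled by library total and TMM factor, and FPKM is the count divided by library total and exonic length, the scale on which genes can be set side by side. Some mice held the same place for most members. SCI mouse 3 was the lowest SCI mouse for 10 of the 10 genes and SCI mouse 1 the highest for 9. SCI+FIPI mouse 2 was the highest of its group for 9 genes, and Sham mouse 2 the lowest of its group for 9. The lowest SCI+FIPI mouse was mouse 1 for 5 genes and mouse 3 for 5, and the highest Sham mouse was mouse 1 for 6 and mouse 3 for 4. The 10 genes took 0.847% to 0.953% of all counts in the Sham mice, 0.311% to 0.420% in the SCI mice and 0.478% to 0.552% in the SCI+FIPI mice.

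In the uninjured cord all 10 genes were abundant. By mean FPKM, Nefm stood at 384.0, Stmn3 at 358.4, Nefl at 352.8, Nefh at 295.8 and Tubb3 at 266.2, which placed them 49th, 53rd, 56th, 65th and 79th among 52329 genes. A lower tier followed with Ina at 98.9, Map1b at 97.1, Mapt at 76.7, Stmn2 at 62.3 and Map2 at 45.3 FPKM. The ranges of the Sham mice overlapped between Nefm and Stmn3, Stmn3 and Nefl, Nefh and Tubb3, and Ina and Map1b. Both genes of a pair come from the same mice, and within each Sham mouse Nefh was above Tubb3, while the other overlapping pairs changed order between mice. The other neighbours in the order did not overlap. Every Sham mouse had at least 239 FPKM of Tubb3 and at most 109 FPKM of Ina, which left a wide step between the tiers. FPKM depends on the length used, and the exonic length of Nefm (5782 bases over both transcripts) exceeds its longest transcript (3680 bases). So do those of Map2 (16449 against 6258 bases), Map1b (15846 against 11808), Mapt (7531 against 5253) and Stmn2 (5602 against 3413). Ina has 3240 bases by either measure, so that the order within the lower tier depends on the length used.

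The order differed after injury. In SCI mice Tubb3 led with 163.2 FPKM, ahead of Nefm at 136.6, Stmn3 at 135.1, Nefh at 117.4 and Nefl at 113.9. Map1b at 43.3, Mapt at 41.1, Stmn2 at 30.7, Ina at 26.9 and Map2 at 18.03 FPKM followed. Tubb3 thus stood first by its mean where it had been the fifth, though its SCI mice overlapped those of Nefm, and Ina had the ninth place where it had been the sixth. Both places hold for the exonic length and depend on that choice. In SCI mice and in SCI+FIPI mice each of the leading 5 overlapped its neighbour, as did Map1b and Mapt, and Stmn2 and Ina. The remaining neighbours did not overlap. Within each SCI mouse, Tubb3 was above Nefm, Stmn3 above Nefh, Map1b above Mapt and Stmn2 above Ina, despite the overlap of ranges. Within each SCI+FIPI mouse, Stmn3 was above Nefh, Nefh above Nefl and Map1b above Mapt. In SCI+FIPI mice the order of the leading 5 was as in SCI mice, with Tubb3 at 208.9, Nefm at 201.3, Stmn3 at 197.5, Nefh at 180.7 and Nefl at 171.4 FPKM. Ina and Stmn2 stood level there, both at 39.5 FPKM.

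**Figure D1:**
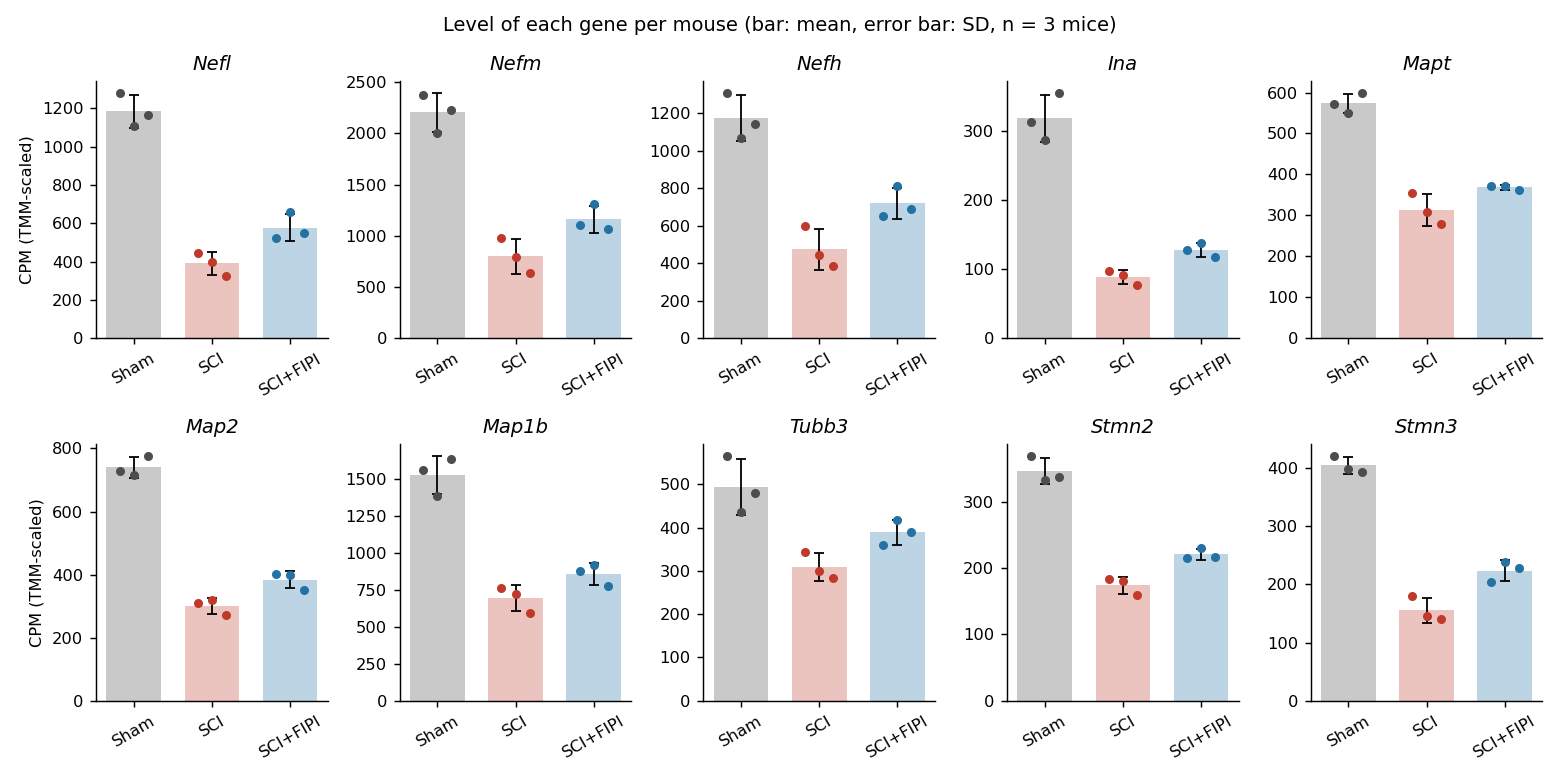
TMM-scaled CPM of each of the 10 genes by group, 1 panel a gene with its own linear axis from 0. Bars are means, error bars SD and points single mice (n = 3). In every panel the Sham points lie above the SCI+FIPI points and these above the SCI points, with no overlap.

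SCI mice were compared with Sham mice to find how the injured, vehicle-treated cord differed from the uninjured one. Injury and injection cannot be told apart in comparisons with Sham mice, and "after injury" covers both. A gene counts as called where edgeR's quasi-likelihood test gave a Benjamini-Hochberg adjusted p below 0.05 over all genes tested together with a log2 fold change of 0.5 or more in size. All 10 genes were called lower, where 22.5% of all genes tested were called lower and 24.4% higher. Their median log2 fold change was -1.30 and the median over all genes tested was -0.00315. For each of the 10 genes every SCI mouse lay below every Sham mouse, a separation found downward in 35% of all genes tested. The exact permutation test gives p = 0.1 for each, the smallest that 3 mice against 3 allow. All 10 remained called with any of the 9 mice left out.

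Ina encodes internexin alpha, a neurofilament subunit found mainly in the central nervous system. It had 312.8, 287.6 and 354.8 CPM in Sham mice 1 to 3 and 97.2, 90.9 and 77.1 CPM in SCI mice 1 to 3. The lowest Sham mouse thus lay far above the highest SCI mouse. Its fall was the largest of the 10, with a log2 fold change of -1.85 (SE 0.0993, adjusted p = 5.26e-09, edgeR's quasi-likelihood test), or 3.60-fold. The level in SCI mice was 88.4 ± 10.3 CPM (SD, n = 3), 27.8% of the Sham mean.

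Nefl encodes the light subunit, around which the other subunits assemble. Its values were 1279, 1106 and 1168 CPM in the Sham mice and 445.6, 398.3 and 326.3 CPM in the SCI mice, a log2 fold change of -1.60 (SE 0.118, adjusted p = 1.55e-07, edgeR). Nefm, the medium subunit and the highest of the 10 in Sham mice, had 2380.5, 2008 and 2228 CPM against 975.6, 790.6 and 634.7 CPM, with a log2 fold change of -1.46 (SE 0.147, adjusted p = 7.82e-06, edgeR). The SCI mice of both genes ran in the same order and stood clear of the Sham mice. Nefh, the heavy subunit with the repeats shown above, had 1308, 1068 and 1145 CPM in Sham mice and 596.3, 443.4 and 384.7 CPM in SCI mice. It fell by 1.31 on the log2 scale (SE 0.162, adjusted p = 7.25e-05, edgeR) and had, with Nefm, the widest spread among SCI mice of the 10 genes (CV 23.0% for Nefh, 21.3% for Nefm).

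Map2, a microtubule-associated protein of dendrites and cell bodies, had 728.1, 715.2 and 776.1 CPM in the Sham mice and 310.5, 320.5 and 270.5 CPM in SCI mice. The log2 fold change was -1.30 (SE 0.0779, adjusted p = 2.67e-09, edgeR), and it was the only member for which SCI mouse 2 and not mouse 1 was highest. Map1b, the microtubule-associated protein prominent in growing axons, had 1562, 1387 and 1636 CPM against 763.2, 725.3 and 595.4 CPM, a log2 fold change of -1.14 (SE 0.0995, adjusted p = 1.76e-07, edgeR). Mapt encodes tau, which binds microtubules of the axon. It had 572.4, 550.2 and 598.2 CPM against 355.1, 308.0 and 277.9 CPM, with a log2 fold change of -0.87 (SE 0.0794, adjusted p = 1.82e-07, edgeR). All 3 fell with no overlap of the groups. Their order depended on the processing, because offsets for GC content and exonic length in the fit gave -1.04 for Map2, -0.89 for Map1b and -1.02 for Mapt.

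Tubb3, the beta tubulin used to mark neurons, fell the least in the fit without offsets. Its values were 565.2, 436.7 and 480.0 CPM in Sham mice and 343.6, 300.4 and 282.6 CPM in SCI mice, and the log2 fold change was -0.68 (SE 0.0992, adjusted p = 4.29e-05, edgeR), or 1.60-fold. With the offsets it was -1.05, and Map1b then fell the least. Stmn3, a stathmin of neurons, had 420.4, 398.5 and 393.6 CPM against 179.8, 146.4 and 140.1 CPM, a log2 fold change of -1.38 (SE 0.0893, adjusted p = 9.03e-09, edgeR). Its relative Stmn2, a growth cone protein needed for axon maintenance, had 369.2, 333.0 and 337.4 CPM against 183.7, 179.9 and 159.9 CPM, with a log2 fold change of -0.99 (SE 0.0685, adjusted p = 1.07e-08, edgeR). Both stathmins separated the groups, and Stmn3 stood at 38.4% of the Sham mean in SCI mice while Stmn2 stood at 50.4%.

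The promoters of Ina and Tubb3 are shown because these members mark the range of the falls in the fit without offsets. RefSeq windows on GRCm38.p6 from 250 bases before to 50 bases after the start were at hand for 5 members, namely Ina, Tubb3, Map1b, Map2 and Stmn3. The Ina window on the plus strand at chr19:47014431-47014730 is 71.7% G and C, and the Tubb3 window on the plus strand at chr8:123411303-123411602 is 67.3%. Capitals mark GC boxes, GGGCGG on either strand.
Ina promoter: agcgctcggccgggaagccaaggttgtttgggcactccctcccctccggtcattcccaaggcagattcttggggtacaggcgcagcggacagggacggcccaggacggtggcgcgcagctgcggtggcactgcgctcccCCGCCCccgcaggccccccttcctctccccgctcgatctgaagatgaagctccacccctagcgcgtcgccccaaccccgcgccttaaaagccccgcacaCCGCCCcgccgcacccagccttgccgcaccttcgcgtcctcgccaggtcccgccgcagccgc
Tubb3 promoter: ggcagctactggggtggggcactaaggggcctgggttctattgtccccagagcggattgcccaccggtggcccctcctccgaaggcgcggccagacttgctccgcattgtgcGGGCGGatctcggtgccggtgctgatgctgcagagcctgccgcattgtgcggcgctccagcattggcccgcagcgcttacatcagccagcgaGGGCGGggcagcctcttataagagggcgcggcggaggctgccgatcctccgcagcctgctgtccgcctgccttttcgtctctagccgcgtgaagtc
Both windows held 2 GC boxes. The motif was in 4 of the 5 member windows, with 5 in Map2, 2 in Map1b and 0 in Stmn3, and in 35.7% of 32851 RefSeq windows of this length. TATAAA was in 1 member window (Map1b) and 13.6% of all windows, CCAAT in 1 (Tubb3) and 37.4%, CACGTG in 0 and 7.15%, and TGACGTCA in 0 and 1.79%. These are matches of letters on both strands and not shown binding sites.

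SCI+FIPI mice were compared with SCI mice to find how the injured cord differed with the inhibitor. All 10 genes had higher means in SCI+FIPI mice, and 4 of them, Nefl, Nefm, Ina and Stmn3, were called higher, where 2.36% of all genes tested were and 0.695% were called lower. The median log2 fold change of the 10 was 0.44 and that of all genes tested -0.00135. Counting the adjusted p alone, with no fold limit, Map2 and Stmn2 joined to make 6 genes, against 6.04% of all genes tested in that direction. For all 10 genes every SCI+FIPI mouse lay above every SCI mouse, which 15.7% of all genes tested did (exact permutation test, p = 0.1 for each member, the smallest the design allows).

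Nefl had 525.5, 658.7 and 548.3 CPM in SCI+FIPI mice 1 to 3, all above the highest SCI mouse. The difference was 0.57 on the log2 scale (SE 0.116, adjusted p = 0.0133, edgeR's quasi-likelihood test), or 1.48-fold. Nefm had 1105, 1309.6 and 1067 CPM, a log2 difference of 0.54 (SE 0.145, adjusted p = 0.0462, edgeR) whose p lay just under the limit. Nefh had 651.7, 814.7 and 691.8 CPM. Its log2 difference of 0.60 was the largest of the 10, but with an SE of 0.160 its adjusted p was 0.0502 from edgeR and it missed the call. The 3 main subunits thus showed near-equal differences on either side of the limit, and SCI+FIPI mouse 2 was the highest for each.

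Ina had 128.1, 137.6 and 117.4 CPM in SCI+FIPI mice and differed by 0.53 (SE 0.0977, adjusted p = 0.00837, edgeR). Stmn3 had 204.5, 238.5 and 228.0 CPM and differed by 0.53 (SE 0.0884, adjusted p = 0.005, edgeR). These genes had smaller standard errors than the neurofilament triplet at a like difference. Map2 had 402.1, 398.6 and 352.5 CPM, with a log2 difference of 0.36 (SE 0.0770, adjusted p = 0.0126, edgeR), and Stmn2 had 214.6, 230.5 and 216.9 CPM, with 0.34 (SE 0.0682, adjusted p = 0.00978, edgeR). Both passed the limit on p and missed that on the fold.

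The remaining genes had the smallest differences. Tubb3 had 360.1, 417.6 and 389.2 CPM and a log2 difference of 0.33 (SE 0.0989, adjusted p = 0.0526, edgeR). Map1b had 875.1, 921.4 and 774.9 CPM and 0.30 (SE 0.0985, adjusted p = 0.0683, edgeR). Mapt had 371.1, 372.1 and 361.1 CPM and 0.23 (SE 0.0790, adjusted p = 0.0807, edgeR). None of the 3 was called. Their groups did not overlap but lay close, with the highest SCI mouse at 355.1 and the lowest SCI+FIPI mouse at 361.1 CPM for Mapt, and gaps of 11.6 CPM for Map1b and 16.5 CPM for Tubb3.

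The calls in this comparison rested on single mice. Without SCI mouse 3, the lowest SCI mouse for every member, edgeR called 0 of the 10 genes higher, with an unadjusted p under 0.05 for 9. The adjusted p stayed under 0.05 for 5 of them, Nefl (0.0247), Ina (0.0186), Stmn3 (0.0131), Map2 (0.0416) and Stmn2 (0.0314), whose log2 differences of 0.28 to 0.46 missed the limit on the fold. Without SCI+FIPI mouse 2 edgeR again called 0, with an unadjusted p under 0.05 for 10 and an adjusted p under 0.05 for 2, Ina (0.0477) and Stmn3 (0.0353), at log2 differences of 0.47 and 0.48. Other tools were run only with all mice, where DESeq2 and limma-voom called 5 each. Without SCI mouse 2 the called genes were 2, Ina and Nefl, and without SCI mouse 1 they were 5. Over all genes the number called in either direction was 572 (3.06%) with all mice, 240 without SCI mouse 3 and 189 without SCI+FIPI mouse 2. The sign of no member changed. Over the 9 omissions the log2 difference ran from 0.45 to 0.68 for Nefl, which stayed called in 7, from 0.44 to 0.61 for Ina, called in 7, and from 0.46 to 0.65 for Stmn3, called in 6. That of Nefm ran from 0.39 to 0.71 and was called in 1, and that of Nefh from 0.47 to 0.80 and was called in 2. With other tools or scaling Nefh often joined the calls, being called in 8 of 10 other settings.

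**Figure D2:**
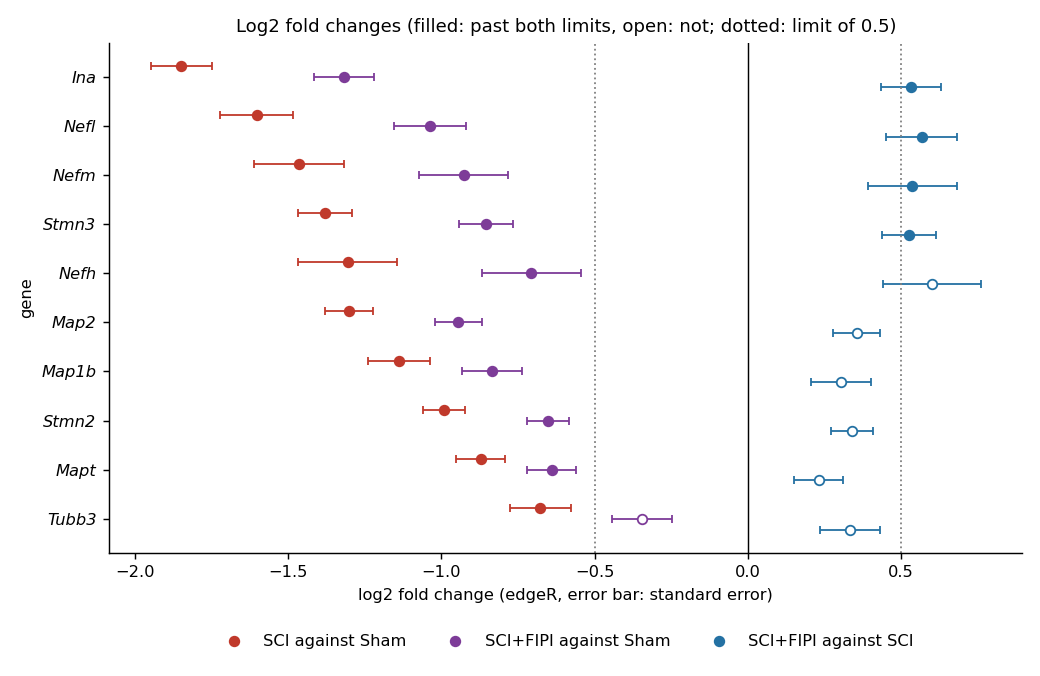
Log2 fold change of each gene in the 3 comparisons from edgeR's quasi-likelihood fit, with bars of 1 SE, filled where called. Falls after injury run from -1.85 (Ina) to -0.68 (Tubb3), and differences with FIPI from 0.23 (Mapt) to 0.60 (Nefh), 4 of them filled.

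SCI+FIPI mice remained below Sham mice for every gene. Called lower were 9 of 10, where 17% of all genes tested were, with a median log2 fold change of -0.84 over the 10. With the adjusted p alone all 10 passed, where 29% of all genes tested did in that direction. The comparison shares its mice with those above and is not independent of them. Ina stood lowest, at 40.1% of the Sham mean and a log2 fold change of -1.32 (SE 0.0975, adjusted p = 1.78e-07, edgeR). Nefl was at 48.8%, Map2 at 52.0%, Nefm at 52.6%, Stmn3 at 55.3%, Map1b at 56.1%, Nefh at 61.3%, Stmn2 at 63.7% and Mapt at 64.2%. Tubb3 was at 78.7% and missed the limit on the fold with a log2 fold change of -0.34 (SE 0.0988, adjusted p = 0.00881, edgeR), but with the offsets it was -0.74 and called. That of Stmn3 was -0.85, and -1.30 with the offsets. For all 10 genes every SCI+FIPI mouse lay below every Sham mouse, as for 32.9% of all genes tested, and the gap was narrowest for Tubb3 at 19.1 CPM.

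Neuron markers moved beside these genes. For the marker lists too, 24.4% of all genes tested were called higher and 22.5% lower after injury, and 2.36% and 0.695% with FIPI. Of 12 genes of neuronal RNA binding, metabolism and synapses (Rbfox3, Elavl3, Elavl4, Eno2, Uchl1, Thy1, Snap25, Syt1, Syp, Syn1, Celf4 and Ndrg4), 12 were called lower in SCI than in Sham mice, with a median log2 fold change of -1.46. In SCI+FIPI against SCI mice 4 of the 12, Rbfox3, Elavl4, Snap25 and Syt1, were called higher, with a median of 0.45. Their mean log2 CPM was 8.49 to 8.60 in Sham, 7.01 to 7.32 in SCI and 7.58 to 7.71 in SCI+FIPI mice. SCI mouse 3 was again the lowest and SCI+FIPI mouse 2 the highest of its group.

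Markers of microglia and macrophages ran the other way. Of 8 such genes 8 were called higher in SCI than in Sham mice (median log2 fold change 2.16). In SCI+FIPI against SCI mice edgeR called 0 of 8, as did DESeq2 and limma-voom, while the unadjusted p was under 0.05 for 3 with edgeR, 5 with DESeq2 and 6 with limma-voom, and 8 of 8 had a negative log2 fold change (median -0.30). Their mean log2 CPM was 4.63 to 5.29 in Sham, 7.52 to 7.79 in SCI and 7.20 to 7.40 in SCI+FIPI mice, with SCI mouse 3 the highest and SCI+FIPI mouse 2 the lowest of the injured mice. Their part in the differences of the cytoskeletal genes was not tested.

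Of 6 motor neuron markers (Chat, Slc18a3, Slc5a7, Mnx1, Isl1 and Prph) 5, all but Prph, were called lower after injury. With FIPI edgeR called 0 of them, with an unadjusted p under 0.05 for 2, DESeq2 called 2 and limma-voom 1, and their median log2 fold change was 0.48. The limma-voom call and 1 of the DESeq2 calls were Prph, which also stands among the other intermediate filaments below. Of 6 oligodendrocyte markers 3 were called lower after injury, of 6 astrocyte markers 2 higher and 1 lower, and of 6 Schwann cell markers 1 higher and 1 lower. In a list of 6, a count of 1 or 2 after injury is near the share of all genes tested (24.4% higher, 22.5% lower). With FIPI edgeR, DESeq2 and limma-voom called 0 in these 3 lists, with an unadjusted edgeR p under 0.05 for 0, 2 and 0 of their genes. In skeletal muscle markers the 3 tools called 0 of 6 in either comparison, with 0 at an unadjusted edgeR p under 0.05. Of 6 bone markers 2, Col10a1 (log2 fold change 9.83) and Spp1 (5.30), were called higher after injury and 1, Dmp1 (-0.83), lower. Col10a1 had a mean of 0.0783 CPM in Sham and 72.0 CPM in SCI mice. With FIPI 1, Bglap (2.28), was called higher and 1, Col10a1 (-2.77), lower, where 3.06% of all genes tested were called in either direction. Ibsp and Sp7 were called in neither comparison. Of 6 markers of dorsal root ganglion sensory neurons, which also express neurofilaments, only Avil and P2rx3 passed the filter. Avil was called higher after injury (log2 fold change 0.98, adjusted p = 0.00225, edgeR), P2rx3 was not called, and with FIPI neither was called. The summed counts of the list were 77 to 110 a mouse. The part of these neurons in the counts of the cytoskeletal genes was not tested. Scn10a, Scn11a, Trpv1 and Mrgprd did not pass it.

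Set against the mean of the 12 neuron markers in each mouse, the cytoskeletal genes did not move as one. The log2 level of Ina relative to the markers was lower in SCI than in Sham mice by a difference of -0.49, and that of Nefl by -0.25, in both without overlap. Nefm (-0.12), Nefh (0.04), Stmn3 (-0.02) and Map2 (0.06) overlapped between the groups. Relative levels of Map1b (0.22), Stmn2 (0.37), Mapt (0.48) and Tubb3 (0.69) were higher in SCI mice without overlap. The mean of all 10 differed by 0.10 and overlapped. In SCI+FIPI against SCI mice the mean of the 10 differed by -0.01 and overlapped, Ina was higher by 0.09 without overlap, and Map1b (-0.14), Stmn2 (-0.10) and Mapt (-0.21) were lower without overlap. With the offsets, an alternative chosen here after seeing the data, the differences in SCI against Sham mice were 0.46 for Map2, 0.62 for Map1b, 0.46 for Tubb3, 0.51 for Stmn2, -0.30 for Stmn3, -0.67 for Ina and -0.07 for Nefh, so that Map1b and not Tubb3 stood highest against the markers. The marker set is a yardstick that itself contains genes that changed unequally, and these values carry no test.

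**Figure D3:**
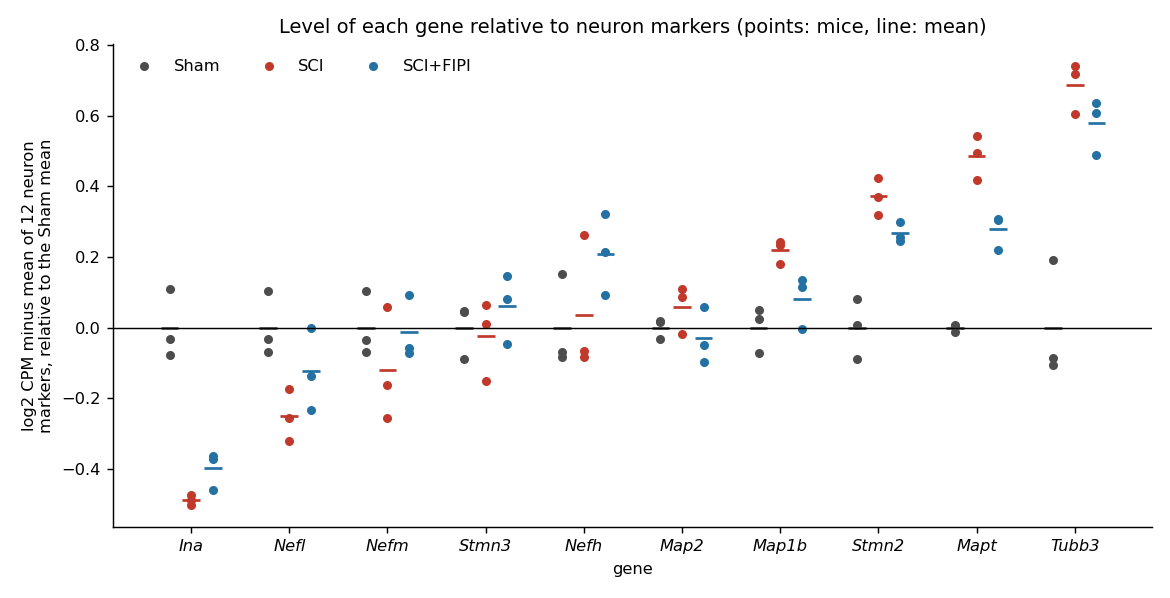
Log2 CPM of each gene minus the mean log2 CPM of 12 neuron markers in the same mouse, relative to the Sham mean, 1 point a mouse. In SCI mice Ina and Nefl lie below the Sham points and Map1b, Stmn2, Mapt and Tubb3 above them.

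Ratios between members were compared within each mouse, which removes the scaling of the library but not effects of GC content or length that differ between libraries. The 9 ratios in 3 comparisons made 27 exact two-sided permutation tests, each of which can give no p below 0.1. All 9 ratios separated SCI from Sham mice (exact permutation test, p = 0.1, adjusted p = 0.135). How often ratios of other genes separate the groups was not computed, so this count is not a trait of these genes. Several of the ratios share Nefl and are not independent. The log2 ratio of Tubb3 to Nefl was higher by 0.94 in SCI mice, that of Stmn2 to Nefl by 0.62 and that of Nefh to Nefl by 0.29, and that of Ina to Nefl was lower, with a difference of -0.24. Among microtubule-associated proteins, the ratio of Mapt to Map2 was higher by 0.43 and that of Map1b to Mapt differed by -0.27. The ratio of Stmn2 to Stmn3 was higher by 0.40. Taken from the fit with offsets for GC content and exonic length, an alternative chosen after seeing the data, the difference of Map1b to Mapt turned to 0.13 and that of Mapt to Map2 was 0.02, so that the order among these genes is not settled. That of Stmn2 to Stmn3 was then 0.81 and that of Ina to Nefl -0.38. In SCI+FIPI against SCI mice 2 of the 9 separated the groups, Tubb3 to Nefl with a difference of -0.24 and Stmn2 to Nefl with -0.23 (exact permutation test, p = 0.1). Both have Nefl as the denominator, and again no share for ratios of other genes was computed. The ratio of Nefh to Nefl differed by 0.05 there (exact permutation test, p = 0.7), that of Nefm to Nefl by -0.02 (p = 0.9) and that of Ina to Nefl by -0.04 (p = 0.7).

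The make-up of the neurofilament RNA was given by shares. As a share of the summed FPKM of Nefl, Nefm, Nefh and Ina, Nefl made up 31.2 ± 0.545% in Sham, 29.0 ± 1.33% in SCI and 28.9 ± 0.50% in SCI+FIPI mice (SD, n = 3). Ina made up 8.76 ± 0.892%, 6.89 ± 0.557% and 6.69 ± 0.444% in that order. Nefh went from 26.1 ± 0.782% in Sham to 29.6 ± 1.46% in SCI and 30.5 ± 0.720% in SCI+FIPI mice. Nefm held 33.9 ± 0.244%, 34.5 ± 0.790% and 34.0 ± 0.806%. Dividing by the longest transcript instead of the exonic length raised Nefm to 44.7%, 45.3% and 44.7% and kept the directions of Nefl, Nefh and Ina. These shares were not tested.

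**Figure D4:**
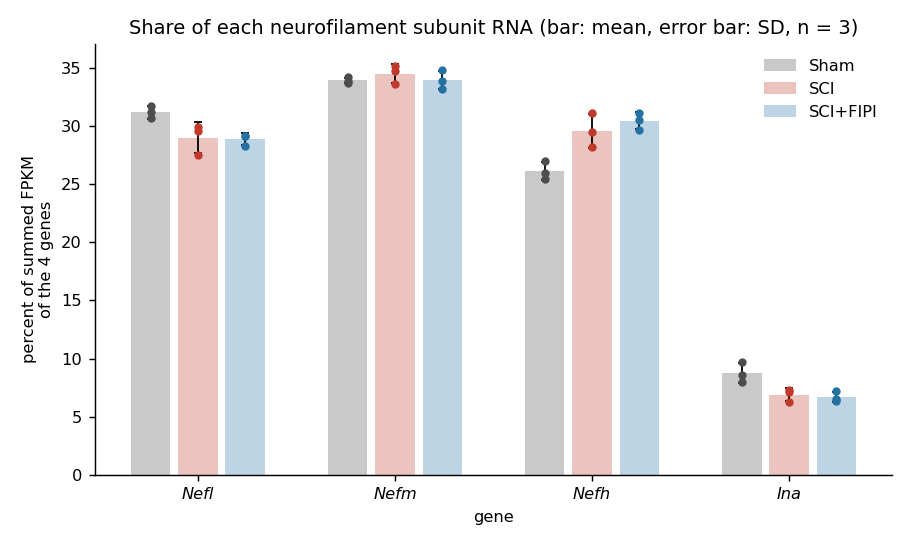
Share of Nefl, Nefm, Nefh and Ina in their summed FPKM by group, in percent. Bars are means, error bars SD and points mice (n = 3). Nefh goes from 26.1% in Sham to 29.6% in SCI mice, while Ina goes from 8.76% to 6.89%.

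The rest of the cytoskeleton was read from 5 lists. Over all genes tested 24.4% were called higher and 22.5% lower after injury, and 2.36% and 0.695% with FIPI. Of 9 other intermediate filament genes 6 were called higher and 0 lower after injury (median log2 fold change 1.46). Vim, the filament of astrocytes, immune and mesenchymal cells, rose by 2.54 (SE 0.0950, adjusted p = 5.19e-11, edgeR). Des, the filament of muscle and pericytes, rose by 1.99 (SE 0.292, adjusted p = 0.000311, edgeR). Gfap, the filament of astrocytes, rose by 1.22, from 4136 to 9620.0 CPM, and Nes, Lmna and Lmnb1 rose too. Prph, the peripheral neuron filament that can assemble with neurofilaments, had a log2 fold change of -0.48 after injury and 0.68 with FIPI (adjusted p = 0.119 and 0.131, edgeR), called in neither. With FIPI edgeR called 0 of the 9 (median -0.12), with an unadjusted p under 0.05 for 3. DESeq2 and limma-voom called Prph alone, with adjusted p = 0.0494 and 0.0327. This gene is also among the motor neuron markers above. After injury the called intermediate filaments outside the neurofilament group thus had the opposite sign to the neurofilaments.

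Of 33 other tubulins and microtubule-associated proteins 17 were called lower and 5 higher after injury, with a median of -0.54. The share called higher lay below that of all genes tested (24.4%). Map9 (log2 fold change -1.63) and Map7d2 (-1.58), which bind microtubules, fell the most. Tubb6, a widely expressed beta tubulin, rose by 2.45 (SE 0.0902, adjusted p = 5.19e-11, edgeR) and Tuba1c, an alpha tubulin of dividing cells among others, by 1.70. Dpysl3, Tubb5 and Mapre1 rose as well. With FIPI 1 of 33 was called, Map7d2, higher by 0.51 (SE 0.128, adjusted p = 0.0361, edgeR), and the median was 0.13. That count is near the 3.06% of all genes tested that were called in either direction. An unadjusted edgeR p was under 0.05 for 14 higher and 4 lower. The adjusted p alone passed for 4 higher and 2 lower, where 1130 higher and 670 lower of 18699 genes tested passed.

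Of 22 genes of axonal transport motors 15 were called lower and 0 higher after injury (median -0.87). Kif5a, the neuronal kinesin that carries neurofilaments, fell by 1.71 on the log2 scale (SE 0.123, adjusted p = 1.38e-07, edgeR) and Dync1i1, a dynein intermediate chain, by 1.65. The same pair was called higher with FIPI, 2 of 22, Kif5a by 0.52 (adjusted p = 0.0221) and Dync1i1 by 0.54 (adjusted p = 0.0214, both edgeR). Of 14 spectrins, ankyrins and their linkers, which hold the axonal membrane skeleton, 9 were called lower after injury (median -1.21), led by Ank1 (-1.62) and Sptb (-1.51), while with FIPI edgeR called 0 (median 0.28), with an unadjusted p under 0.05 for 9, DESeq2 0 and limma-voom 1.

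Of 15 genes for kinases, proteases and turnover of the cytoskeleton 7 were called lower and 1 higher after injury (median -0.50). Cdk5r1, the activator of the neurofilament kinase Cdk5, fell by 1.41 (SE 0.0707, adjusted p = 5.18e-10, edgeR), and Trim2, a ligase that ubiquitinates the light subunit, by 1.27. Cast, the inhibitor of calpain proteases, rose by 0.72 (SE 0.0661, adjusted p = 1.86e-07, edgeR). Cdk5r1 was also the only gene of the 15 called with FIPI, higher by 0.54 (SE 0.0713, adjusted p = 0.0017, edgeR). An unadjusted edgeR p was under 0.05 for 7 higher and 1 lower.

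**Figure D5:**
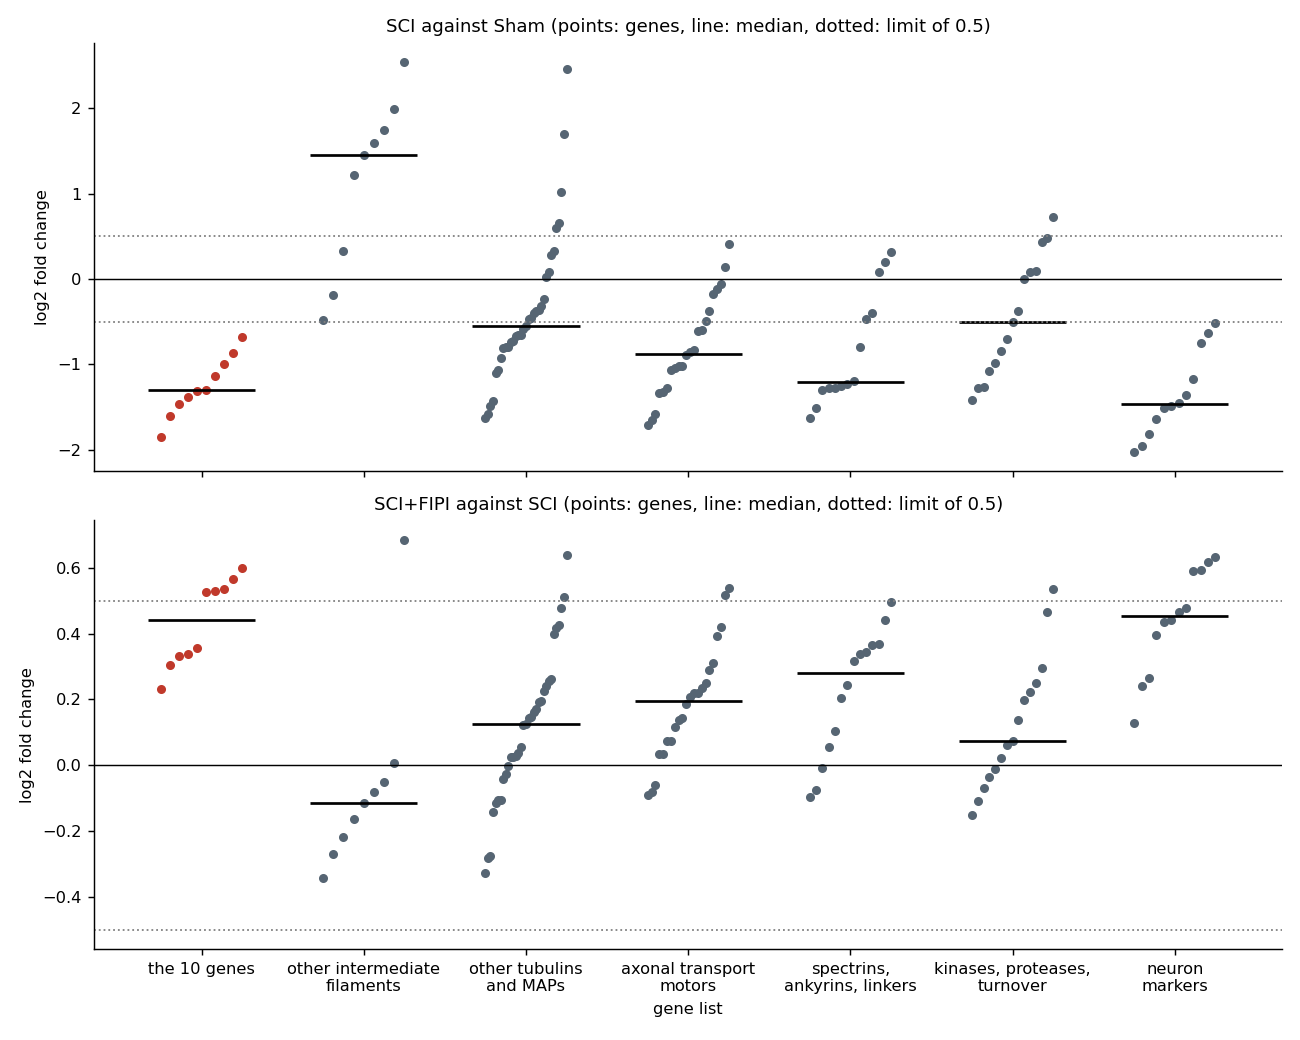
Log2 fold change of each gene of the 10 members, 5 related lists and 12 neuron markers, in SCI against Sham (top) and SCI+FIPI against SCI (bottom). Each point is 1 gene, whether called or not, and lines are medians. Other intermediate filaments lie mostly above 0 after injury (median 1.46), the members and the motors below (medians -1.30 and -0.87).

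Across the 9 mice, the genes closest to the members were sought by the root mean square difference of log2 CPM after centring each gene, among 14539 genes whose mean log2 CPM reached 1. Closest to the mean profile of the 10 genes were Eef1a2 (0.0311), a translation factor of neurons and muscle, Nsg1 (0.0363), a protein of neuronal endosomes, Ncdn (0.0372), Ache (0.0384), which breaks down acetylcholine, and Cdk5r2 (0.0393), another activator of Cdk5. Closest to the mean of Nefl, Nefm and Nefh were Syt3 (0.0532), Epha10 (0.0543), Kcng4 (0.0584), Trnp1 (0.0605) and Cend1 (0.0608). Members themselves lay farther from their common profile, Map1b (0.0811) and Stmn3 (0.0830) least and Ina (0.264) and Tubb3 (0.266) most. The genes named above are the nearest of 14539 and the members were not picked by nearness, so these distances cannot be weighed against each other. Group differences make up most of each profile, so that this measure ranks likeness over 3 groups and not over 9 independent conditions.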

How the data were processed

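The authors trimmed the reads, counted them on each gene and deposited raw counts of 52550 genes for 9 mice, without normalization. The submitters' processing notes name GRCm38 and R 4.2.3. The aligner, the counting program and whether strand was used are not given in the sources used here. Symbols, positions and lengths came from GENCODE M21, which held 52403 of the identifiers.

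Counts were fitted in R 4.3.3 with edgeR 4.0.16 (TMM factors 0.985 to 1.02, filterByExpr, robust quasi-likelihood fit, 1 mean per group over 9 mice, 6 residual degrees of freedom, biological coefficient of variation 9.3%). The limits on fold and p follow the study's methods, which name no test. FPKM were computed from the counts and exonic lengths. Log2 CPM used a prior count of 2. Mice of a group differed by more than sampling noise (chi-square per gene 6.82 to 13.4), and each counted as 1 replicate.

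The members and lists were chosen with earlier results of these data known. Named genes were all 10 members and, in each related list, at most the 2 largest called changes in each direction, with further names given where a count was small or a gene is well known, chosen after their values were seen. Alternatives tried were scaling by RLE or upper-quartile factors, other filters, DESeq2 1.42.0, limma-voom (limma 3.58.1), a replicate block, offsets for GC content and exonic length, the groups compared alone, no fold limit and each mouse left out. Same-numbered mice of different groups are different animals.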

Additional observations from a re-analysis of the deposited data

How the results depend on the processing

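In SCI against Sham mice all 10 genes were called lower under every alternative run. In SCI+FIPI against Sham mice 9 were called, or 10 with offsets for GC content and exonic length, with the replicate block and these offsets together, and with no fold limit. In SCI+FIPI against SCI mice 4 were called, and 5 with RLE factors, upper-quartile factors, a minimum of 10 counts in every mouse, DESeq2, limma-voom, the replicate block, or the block with offsets. The count was 4 with no filter or with offsets alone, 3 with only the groups compared and 6 with no fold limit. Leaving out 1 mouse gave 0 to 5 (0 without SCI mouse 3 or SCI+FIPI mouse 2). Over all genes 572 were called in that comparison, 776 with no filter and 1800 with no fold limit, and 189 to 1038 with a mouse left out. Of those called the share higher was 77.3%, from 62.8% (no fold limit) to 82.5% (upper-quartile factors) under other settings, and from 64.2% to 87.8% with a mouse left out (without SCI+FIPI mouse 1 and mouse 2). No log2 fold change of a member reversed. Offsets moved the median of all genes by -0.136 in SCI against Sham and -0.144 in SCI+FIPI against Sham, where the median of the 10 was -1.31 and -0.88. With them, in SCI against Sham mice, the log2 ratio of Map1b to Mapt reversed to 0.13, and those of Mapt to Map2, Stmn2 to Stmn3, Tubb3 to Nefl and Stmn2 to Nefl were 0.0203, 0.81, 0.75 and 0.81 (an alternative chosen after seeing the data; the cause was not tested). The labels do not say whether mice with the same replicate number shared a batch, and the correlations between mice do not settle it. Correlations of same-numbered deviations ran from -0.0726 to 0.108, with 1 of 9 over 0.1. Those of other pairs ran from -0.108 to 0.0889, and 4 of 9 mice correlated best with their own number. With 3 mice a group a single mouse decides calls near the limits.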

Other observations

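Between pairs of members, the root mean square difference of centred log2 CPM over the 9 mice was smallest for Nefl and Nefm (0.0785), Mapt and Stmn2 (0.0852), Map2 and Map1b (0.0886) and Nefm and Nefh (0.106). It was largest for Ina and Tubb3 (0.527) and Ina and Mapt (0.412). Nefl and Nefm share exonic sequence on opposite strands, and the part of this overlap in their likeness was not tested.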
